A study of Mus musculus with 85 samples.

Results

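The miR-101 family was followed across 85 heart libraries, as the 2 rows mmu-miR-101a-3p and mmu-miR-101b-3p of a table of 1977 mature miRNAs. The members were chosen by name, with earlier counts and relations from these same libraries in view, so their levels are given as a description. The table held 3 further rows of the name, mmu-miR-101a-5p, mmu-miR-101b-5p and mmu-miR-101c, and all 5 are accounted for here. Each library came from total RNA of the heart of 1 female mouse from a panel of inbred strains, the Hybrid Mouse Diversity Panel. The mice were 16 weeks old, and 8 weeks on chow had been followed by 8 weeks on high-fat/high-sucrose food (HF/HS). The libraries formed 1 group, with no mice on another diet. The series is titled as coming from 85 strains, which with 85 libraries would leave 1 library for each strain. The paper gives a smaller number of strains for its miRNA sequencing, so a repeat of a strain cannot be checked. The labels do not say which library is which strain. A difference between libraries therefore holds strain, mouse and library preparation together, and these cannot be told apart.

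MiRNAs are short RNAs that guide a silencing complex to messenger RNAs, mostly by pairing of the seed, bases 2 to 8 from their 5′ end. The miR-101 family is known for repressing Ezh2, a histone methyltransferase, and Fos, a transcription factor subunit, and in the heart it has been studied as a brake on fibroblast growth and collagen synthesis. Mice carry the family at separate loci, and the mature sequences are so alike that telling the members apart depends on single bases and on where a read starts.

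The 3p arms are shown first because their likeness sets what the counts can separate. Capitals mark the seed, bases 2 to 8, and all sequences are RefSeq sequences on GRCm38.p6.
mmu-miR-101a-3p: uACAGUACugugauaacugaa
mmu-miR-101b-3p: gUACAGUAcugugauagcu
mmu-miR-101c: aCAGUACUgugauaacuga
mmu-miR-144-3p: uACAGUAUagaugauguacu

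The annotated miR-101b-3p started 1 base earlier than miR-101a-3p, so the letters of the miR-101a-3p seed lay at bases 3 to 9 of miR-101b-3p and the seeds counted from each 5′ end were not the same. Over the 18 bases that then aligned, the arms differed at 1 position, A16G, counted from the 5′ end of miR-101a-3p and with its base first. The 3 bases that follow miR-101b-3p in its hairpin equalled the last 3 bases of miR-101a-3p, so a full read of miR-101a-3p differed from the Mir101b locus at that 1 base only. The annotated miR-101c was bases 2 to 20 of miR-101a-3p, letter for letter, and its annotated transcript of 75 bases held those 19 bases but not the whole of miR-101a-3p. A read trimmed to these 19 bases could not be told apart between both names, and the counts of miR-101c are uncertain for that reason. MiR-144-3p, an erythroid miRNA, shared the first 7 bases of miR-101a-3p, and so bases 2 to 7 of the seed.

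The precursors are shown because both arms of each were in the table, with the mature arms in capitals, the 5p arm first.
Mir101a: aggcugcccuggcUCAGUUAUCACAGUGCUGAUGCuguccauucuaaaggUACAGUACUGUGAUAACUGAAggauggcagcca
Mir101b: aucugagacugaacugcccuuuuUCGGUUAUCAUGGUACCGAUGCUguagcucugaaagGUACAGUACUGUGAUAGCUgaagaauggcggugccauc

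Mir101a (ENSMUSG00000065451.1) lies on chromosome 4 at chr4:101346945-101347027, minus strand, inside an exon (chr4:101346531-101347103) of the long noncoding RNA gene E130102H24Rik on the same strand. Mir101b (ENSMUSG00000065556.1) lies on chromosome 19 at chr19:29135279-29135375, plus strand, in an intron of the protein-coding gene Rcl1 on the same strand. Mir101c (ENSMUSG00000106183.1) is annotated on chromosome 9 at chr9:3038669-3038743, minus strand. The mature miR-101a-3p covers chr4:101346957-101346977 and miR-101b-3p covers chr19:29135338-29135356.

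Totals ranged from 1457 to 30202 counts per library (median 12248), so 0 counts in a library still allowed up to 3 counts of its total, and all intervals here are 95% Wilson intervals that cover counting error only. By earlier results of these data the libraries fell into 5 runs of library numbers, S1-S10, S11-S21, S22-S48, S49-S59 and S60-S85. A library number is a label and nothing in the labels says what the runs were. MiR-1a-3p, the muscle miRNA, held 17.7% of all counts and the cardiomyocyte markers miR-208a-3p, miR-499-5p and miR-133a-3p were all present, as the heart label says. In bulk tissue, fewer cells of a type and less RNA per cell cannot be told apart.

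MiR-101a-3p made up nearly all of the family. It had 9178 counts, was seen in 85 of 85 libraries with 4 to 298 counts (median 108), and held 0.804% of all counts (0.787 to 0.820), rank 25 among the miRNAs. MiR-101b-3p had 53 counts, was seen in 33 of 85 libraries with never more than 4 counts, and held 0.00464% of all counts (0.00355 to 0.00607), rank 169. Of the counts of both 3p arms, miR-101a-3p held 99.4% (99.2 to 99.6) and miR-101b-3p 0.574% (0.439 to 0.750). The filter on low counts kept 51 of 548 miRNAs with a count, among them miR-101a-3p and not miR-101b-3p.

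The other rows of the name were low as well. MiR-101c had 125 counts in 50 libraries and at most 8 in any library, rank 135. The 5p arms had 11 counts in 9 libraries for miR-101a and 2 counts in 2 libraries for miR-101b. The 5p arm was 0.120% of both arms of miR-101a (0.0669 to 0.214) and 3.64% of both arms of miR-101b (1.003 to 12.3), the latter from only 55 counts. MiR-144-3p had 430 counts in 64 libraries, with a highest count of 29.

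The level of miR-101a-3p followed the runs of library numbers. In S1-S10 it was 0.0743% of counts in the lowest library, 0.122% in the median and 0.196% in the highest. In S22-S48 the lowest, median and highest libraries had 0.568%, 1.002% and 1.36%, and in S60-S85 they had 0.854%, 1.13% and 1.43%. In S49-S59 they had 0.0937%, 0.142% and 0.513%. Every library of S22-S48 and S60-S85 was above every library of S1-S10 and S49-S59, and the nearest values were 0.568% in S36 and 0.513% in S59.

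S11-S21 held both kinds of library. S11, S12, S13, S14 and S19 had 0.795%, 0.970%, 0.785%, 0.755% and 1.15% of counts as miR-101a-3p. S15, S16, S17, S18, S20 and S21 had 0.135%, 0.0711%, 0.171%, 0.0818%, 0.0919% and 0.0575%. No library of this run lay between these sets, and S14 had only 11 counts of miR-101a-3p in its total of 1457. Over all 85 libraries in order of level, the widest gap on the log2 scale lay between 0.296% in S58 and 0.513% in S59, with 26 libraries below it and 59 above.

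**Figure D1:**
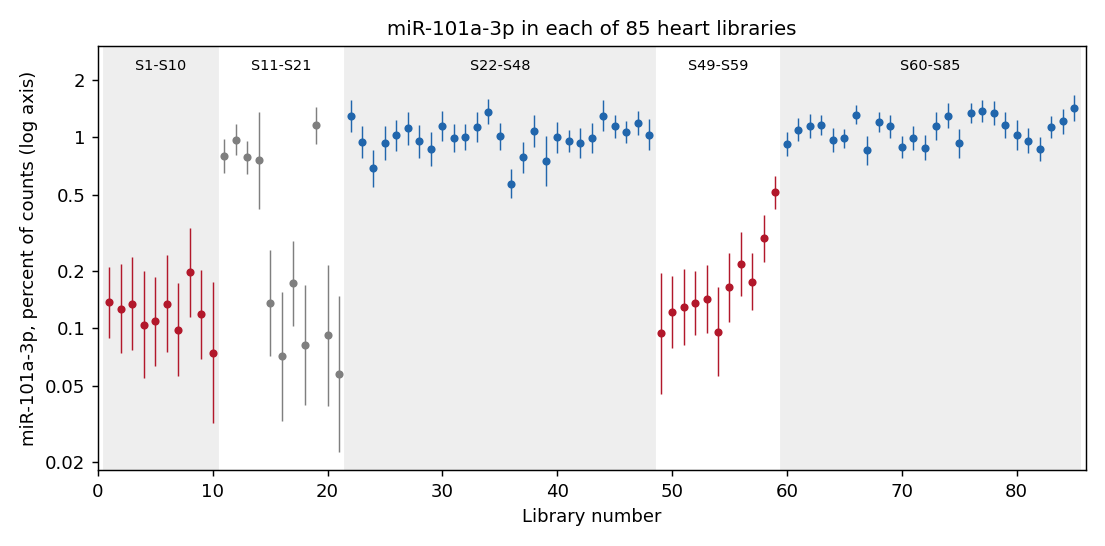
MiR-101a-3p as a percent of the counts of each library (log axis) against library number, with 95% Wilson intervals as bars. Red points are S1-S10 and S49-S59, blue points are S22-S48 and S60-S85, and grey points are S11-S21. All blue points lie above all red ones, and grey points lie at both levels.

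On the scale of log2 CPM (counts scaled to a common library size), normalised by TMM, miR-101a-3p averaged 13.52 ± 0.29 (SD, n = 53) in S22-S48 and S60-S85 and 10.55 ± 0.57 (SD, n = 21) in S1-S10 and S49-S59. The difference was 2.97 log2 units, 7.84-fold, the second largest of 51 miRNAs, after 3.15 for miR-142a-3p, a leukocyte miRNA. Without TMM the difference was 2.72 and still ranked second. The median of all 51 differences was -0.17 with TMM and -0.44 without it, so the size of the step is relative to a shift of that order. No test is given, because the run limits came from these same values.

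Of the 51 miRNAs, 15.7% did not overlap between these runs. These were miR-101a-3p, miR-142a-3p, miR-208a-3p, miR-29b-3p and miR-30e-5p, all higher in S22-S48 and S60-S85, and let-7a-5p, let-7b-5p and let-7c-5p, all lower there. MiR-208a-3p, encoded in an intron of a cardiac myosin gene, had a median of 0.832% of counts in S22-S48 and S60-S85 and of 0.161% in S1-S10 and S49-S59. MiR-29b-3p, a repressor of collagen genes, had 1.13% and 0.254%. MiR-30e-5p had 4.41% and 1.45%, and miR-142a-3p had 1.62% and 0.20%. In S11-S21 these 4 miRNAs were also higher in S11, S12, S13, S14 and S19 than in any of the other libraries of that run. Other miRNAs of the same cell types went either way. Of the cardiomyocyte ones, miR-133a-3p and miR-133b-3p had differences of -1.09 and -0.60 log2 units. MiR-1a-3p and miR-499-5p had differences of 0.76 and 0.67. MiR-208b-3p, under the filter, was 0.000999% and 0.00305% of the pooled counts of S1-S10 and S49-S59. In those of S22-S48 and S60-S85 it was 0.00927% and 0.00810%. The leukocyte miR-223-3p, which did not pass the filter, was 0.144% and 0.179% of the pooled counts of S1-S10 and S49-S59 and 0.0762% and 0.0675% of those of S22-S48 and S60-S85. The leukocyte miR-150-5p, also under the filter, was 0.154% and 0.117% in the first of these and 0.0371% and 0.0241% in the second. MiR-142a-5p, a leukocyte miRNA under the filter as well, went with miR-142a-3p. It was 0.0190% and 0.0250% in the first and 0.113% and 0.101% in the second.

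MiR-101c was lower in the same runs as miR-101a-3p, and miR-101b-3p had too few counts to tell. MiR-101b-3p was 0.00531% of counts (0.00393 to 0.00718, 42 counts) in S22-S48 and S60-S85 and 0.00189% (0.000809 to 0.00443, 5 counts) in S1-S10 and S49-S59, and these intervals overlap. MiR-101c had 117 counts and 3 counts there, 0.0148% (0.0123 to 0.0177) and 0.00114% (0.000386 to 0.00334), and these intervals do not overlap. A read trimmed to bases 2 to 20 of miR-101a-3p cannot be told from miR-101c, so these counts may hold reads of either. MiR-101b-3p was 0.503% of both 3p arms (0.372 to 0.679) in the first of these sets of runs and 1.11% (0.473 to 2.56) in the second, which could not be told apart at this depth.

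**Figure D2:**
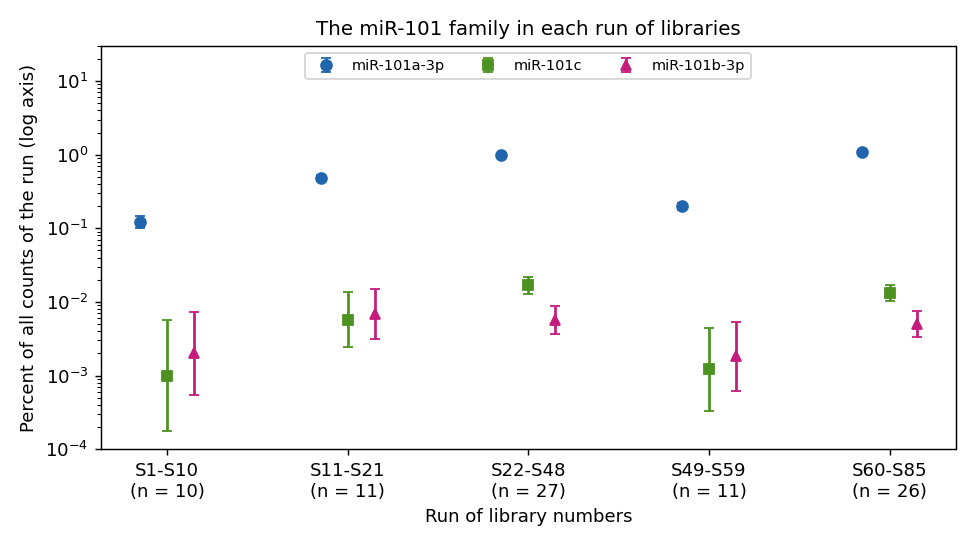
Pooled percent of counts (log axis) of miR-101a-3p, miR-101c and miR-101b-3p in each run of library numbers, with 95% Wilson intervals as bars. MiR-101a-3p lies over 10 times above both other members in every run, from 0.122% of counts in S1-S10 to 1.09% in S60-S85, and the intervals of miR-101b-3p and miR-101c overlap in S1-S10, S11-S21 and S49-S59.

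MiR-101a-3p is poor in G and C, at 33.3% of its bases against a median of 40.9% over the 41 of 51 miRNAs whose mature sequence was in the RefSeq table. The difference between runs and GC content were related across these 41 miRNAs with Pearson's r = -0.41 and Spearman's rho = -0.35, and with r = -0.35 and rho = -0.31 when miR-101a-3p was left out. The points share libraries and are no replicates, so these values carry no test. Of the 4 miRNAs at or under 33.3% GC, 2 had a positive difference, miR-101a-3p and the cardiomyocyte miR-499-5p, beside 23 of all 51 miRNAs. The part of base composition in the step of miR-101a-3p was not tested.

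**Figure D3:**
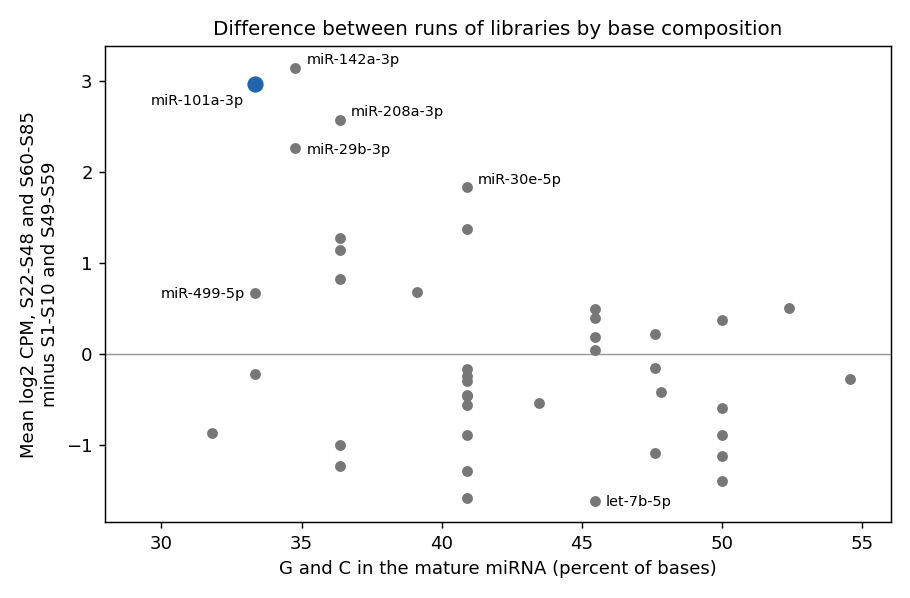
Difference in mean log2 CPM between S22-S48 with S60-S85 and S1-S10 with S49-S59 (y axis) against the percent of G and C in the mature miRNA (x axis), 1 point per miRNA, 41 miRNAs. MiR-101a-3p (blue) has 33.3% GC and a difference of 2.97, and miRNAs of like GC content lie on both sides of 0.

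Whether levels moved with library number was tested with edgeR's quasi-likelihood test, and 43.1% of the 51 miRNAs were called as rising and 41.2% as falling at a Benjamini-Hochberg adjusted p under 0.05. In CPM without TMM the split was 15 rising and 29 falling, beside 22 and 21 with TMM. MiR-101a-3p rose by 0.24 log2 units per 10 libraries (SE 0.053, adjusted p = 4.50e-05). With the run as a covariate the slope was 0.09 (SE 0.097, adjusted p = 0.955) and 0 of 51 miRNAs were called by edgeR, with 0 at an unadjusted p under 0.05. Since most of the miRNAs were called without this covariate, the call is close to the background. With it, no slope of miR-101a-3p common to the 5 runs was detectable, which leaves single runs undescribed. In S49-S59 the level was 0.0937% of counts in S49, 0.142% in S53, 0.0954% in S54 and 0.175% in S57. It was 0.296% in S58 and 0.513% in S59, and the trend inside this run was not tested.

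Libraries differed in miR-101a-3p by more than counting error in every run but S1-S10. The chi-square of its counts against the library totals, per degree of freedom, would be about 1 for counting error alone, and it was 30.5 over all 85 libraries, against a median of 12.2 over the 51 miRNAs. Within runs it was 0.634 in S1-S10, 29.3 in S11-S21, 4.24 in S22-S48, 12.5 in S49-S59 and 4.66 in S60-S85. The value of S11-S21 spans its libraries of high and low level. In S1-S10 the libraries thus spread no more than counting error, from a mean of only 12.2 counts each. In S49-S59 the value rests on S58 and S59, the last libraries of that run by number, with 0.296% and 0.513%. The other 9 libraries had 0.0937% to 0.216% and a chi-square per degree of freedom of 1.29.

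Within S22-S48 and S60-S85, the variation of miR-101a-3p beyond counting error was modest. Its coefficient of variation (CV) in excess of counting error was 14.9%, rank 36 of 51 in that measure, and the median miRNA had 17.2%. For comparison miR-208a-3p had 35.9% and miR-30e-5p 11.5%. In S1-S10 and S49-S59 the excess CV of miR-101a-3p was 60.3%, the highest of the 51, against a median of 17.4%. Without S58 and S59 no excess over counting error was left for miR-101a-3p in these runs (rank 50 of 51), against a median of 15.8%, a setting added after seeing the data. MiR-101b-3p had a chi-square per degree of freedom of 1.33 over all libraries and 1.23 in S22-S48 and S60-S85, so at its depth hardly any spread beyond counting error could be seen. The split of counts between miR-101a-3p and miR-101c had a chi-square per degree of freedom of 0.975 over all libraries. That between miR-101a-3p and miR-101b-3p had 3.31 over all libraries and 1.25 in S22-S48 and S60-S85. With 53 counts of miR-101b-3p in all, libraries such as S20, with 5 counts of miR-101a-3p and 2 of miR-101b-3p, weigh heavily in the 3.31. No shift of this split is read from it.

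**Figure D4:**
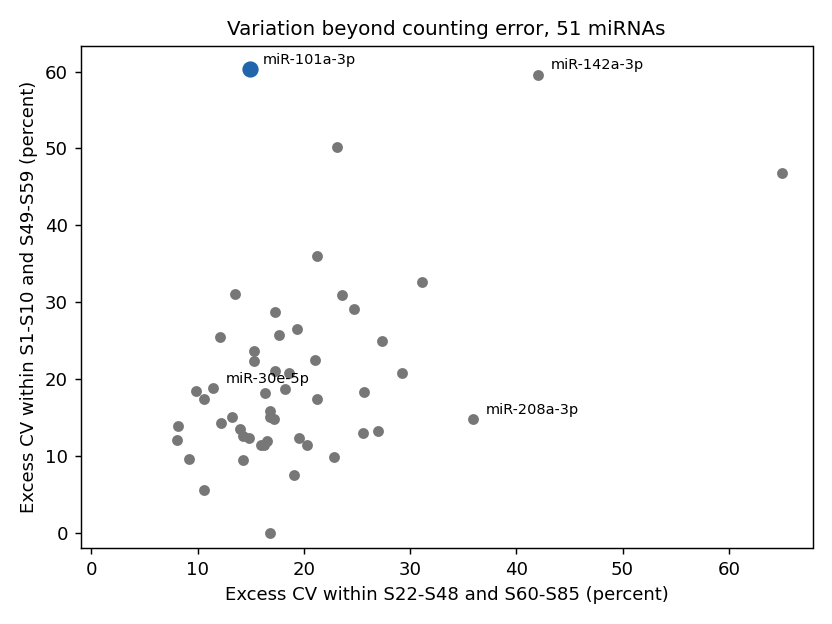
Excess CV of 51 miRNAs within S1-S10 and S49-S59 (y axis, percent) against that within S22-S48 and S60-S85 (x axis, percent), 1 point per miRNA. MiR-101a-3p (blue) has the highest value on the y axis, 60.3%, which rests on S58 and S59, and 14.9% on the x axis, below the median of 17.2%.

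Which miRNAs vary with miR-101a-3p between hearts was asked with the mean of each run removed from log2 CPM, by Pearson's r with a two-sided permutation test of 100000 permutations within runs, adjusted over 50 miRNAs. Over all 85 libraries 28% of the miRNAs were called as positive and 44% as negative, 14 and 22 miRNAs. The balance depended on the scaling and the measure, with 17 positive and 15 negative with DESeq2 size factors, 14 and 15 with the biweight midcorrelation, and 20 and 9 of 547 without the filter. These counts rest on S11-S21, which holds both levels within 1 run. Without that run 12% were called positive and 10% negative. In the 53 libraries of S22-S48 and S60-S85 alone, a setting added after seeing the data, 12% were called positive and 14% negative.

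The 5 miRNAs most like miR-101a-3p over all 85 libraries were miR-30e-5p (r = 0.84), miR-208a-3p (r = 0.73), miR-29b-3p (r = 0.73), miR-29c-3p (r = 0.66) and miR-1b-5p (r = 0.65), all with an adjusted permutation p of 0.000761 or less. In S22-S48 and S60-S85 alone, miR-30e-5p had r = 0.46 (rho = 0.42, adjusted permutation p = 0.00564), but in CPM without TMM it was no longer called (r = 0.34, adjusted permutation p = 0.0515). MiR-208a-3p had r = 0.41 (rho = 0.32, adjusted permutation p = 0.0135), though by rho miR-208a-3p was not called (adjusted permutation p = 0.0887). MiR-1b-5p had r = 0.36 there (adjusted permutation p = 0.0443), but r = -0.02 in CPM without TMM, and by rho it was not called (adjusted permutation p = 0.0972). MiR-29b-3p and miR-29c-3p had r = 0.21 and 0.29 and were not called there. The 3 lowest over all libraries were let-7f-5p (r = -0.69), let-7a-5p (r = -0.68) and let-7c-5p (r = -0.67), and of these only let-7a-5p was called in S22-S48 and S60-S85, with r = -0.52 (adjusted permutation p = 0.00117).

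The cardiomyocyte miRNAs did not move as a group with miR-101a-3p. Of 6 listed, 5 passed the filter, and over all 85 libraries 3 were positive, miR-208a-3p, miR-1a-3p (r = 0.57) and miR-499-5p (r = 0.42), while miR-133a-3p was negative (r = -0.57) and miR-133b-3p was not called (r = -0.06). Their median r was 0.42, and that of all 50 miRNAs was -0.12. Over all 85 libraries without the filter, miR-133a-3p was not called (r = -0.41, adjusted permutation p = 0.0857). In S22-S48 and S60-S85, 1 of 5 was positive, miR-208a-3p, and 1 was negative, miR-133a-3p, with r = -0.53 (rho = -0.53, adjusted permutation p = 0.00117), and the median r was 0.10. MiR-133a-3p and miR-1a-3p are made from shared muscle transcripts, and in these libraries miR-1a-3p had r = 0.34 with miR-101a-3p and was not called (adjusted permutation p = 0.0597). It was called by rho (0.36, adjusted permutation p = 0.0468), with the slope on the log2 total removed (r = 0.38, adjusted permutation p = 0.0288) and without S24 and S36, whose miR-101a-3p was farthest from the median of these libraries (r = 0.46, adjusted permutation p = 0.00813). It had r = -0.04 in CPM without TMM.

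MiR-133a-3p was negative in each of the 5 runs, with r of -0.11 in S1-S10, -0.81 in S11-S21, -0.54 in S22-S48, -0.15 in S49-S59 and -0.52 in S60-S85. MiR-208a-3p was positive in each, with 0.29, 0.93, 0.37, 0.69 and 0.49. The values of S11-S21 compare its libraries of high and low level. Those of S1-S10 rest on a mean of 12.2 counts of miR-101a-3p per library, with no spread beyond counting error. In S49-S59 the library S59 was the highest in both miR-101a-3p and miR-208a-3p. Both calls in S22-S48 and S60-S85 remained in CPM without TMM (r = -0.40 and 0.39, both with an adjusted permutation p of 0.0223) and without S24 and S36 (r = -0.47 and 0.41, with adjusted permutation p of 0.00813 and 0.0150).

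The fibroblast miRNAs gave no relation that held within S22-S48 and S60-S85. Of 7 listed, 3 passed the filter. Over all 85 libraries miR-21a-5p, a stress-induced miRNA, was positive (r = 0.59), and miR-199a-3p and miR-199b-3p, which have the same mature sequence and so share reads, were negative (both r = -0.38). Without S11-S21 none of the 3 was called, with r from -0.28 to 0.17, 2 of them at an unadjusted p under 0.05. In S22-S48 and S60-S85 none was called either, with r from -0.21 to 0.18, and none had an unadjusted p under 0.05. Their median r was -0.20 there, beside -0.12 over all 50 miRNAs.

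The miR-29 family, which represses collagen genes, was split. Over all 85 libraries miR-29b-3p and miR-29c-3p were positive and miR-29a-3p was negative (r = -0.26, adjusted permutation p = 0.0355). In S22-S48 and S60-S85 none of the 3 was called, with r of 0.21, 0.29 and -0.22, and 1 had an unadjusted p under 0.05.

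Other cell types were represented by few miRNAs. The endothelial miR-126a-3p and miR-126a-5p were both positive over all libraries (r = 0.59 and 0.53), and miR-126a-5p alone was called in S22-S48 and S60-S85 (r = 0.36, adjusted permutation p = 0.0407), where it had r = 0.21 without S24 and S36 and was no longer called. Of the smooth muscle miRNAs, miR-145a-5p was negative over all libraries (r = -0.51) and miR-143-3p was not called (r = 0.10), and neither was called in S22-S48 and S60-S85. The leukocyte miR-142a-3p was positive over all libraries (r = 0.65) and had r = 0.30 in S22-S48 and S60-S85 (adjusted permutation p = 0.0945), while 3 other leukocyte miRNAs did not pass the filter. Without the filter, the 4 leukocyte miRNAs had r from -0.47 to 0.69 over all libraries, with 2 called positive, 0 called negative and all 4 at an unadjusted p under 0.05. The erythroid miR-451a was called in neither (r = 0.04 and -0.10).

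**Figure D5:**
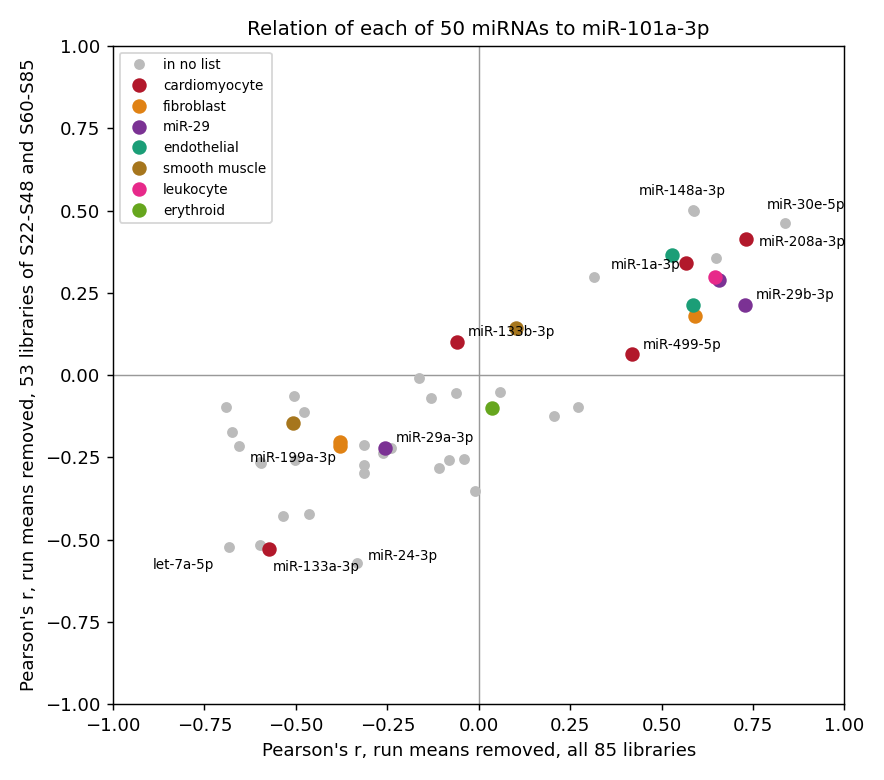
Pearson's r of each of 50 miRNAs with miR-101a-3p, with run means removed, over all 85 libraries (x axis) and over the 53 libraries of S22-S48 and S60-S85 (y axis), coloured by cell type list. Most values are nearer to 0 on the y axis, where miR-208a-3p lies at 0.41 and miR-133a-3p at -0.53.

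In S22-S48 and S60-S85, 6 miRNAs were called as positive and 7 as negative, and those outside the lists and the ranks above are named here after their values were seen. The remaining positive ones were miR-148a-3p (r = 0.50) and miR-126b-3p (r = 0.50), both with an adjusted permutation p of 0.00250. The remaining negative ones were miR-24-3p (r = -0.57), miR-125b-5p (r = -0.52), miR-23a-3p (r = -0.43), miR-125a-5p (r = -0.42) and miR-378b (r = -0.35), with adjusted permutation p from 0.00117 to 0.0407. In CPM without TMM, miR-24-3p (r = -0.35, adjusted permutation p = 0.0515) and miR-23a-3p (r = -0.21, adjusted permutation p = 0.312) were no longer called, and without S24 and S36 miR-378b was not (r = -0.34, adjusted permutation p = 0.0536). MiR-378b had the other sign in S1-S10 (r = 0.70) and S49-S59 (r = 0.55). Over all 85 libraries it was not called (r = -0.01, adjusted permutation p = 0.921).

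The relations within S22-S48 and S60-S85 had much the same order as the difference between runs. Across the 50 miRNAs, the r with miR-101a-3p in these 53 libraries and the difference in log2 CPM between runs were related with Pearson's r = 0.74 and Spearman's rho = 0.70, given as a description over miRNAs that share libraries. Whether what separates the runs has a part in the relations between these hearts was not tested.

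MiR-101b-3p gave no relation. With 0 to 4 counts per library, the same permutation test called 0 of 51 miRNAs with it, with 0 at an unadjusted p under 0.05, and Spearman's rho and the biweight midcorrelation also called 0, with 2 and 3 at an unadjusted p under 0.05. Its own within-run r with miR-101a-3p was -0.06 (permutation p = 0.680). In counts this sparse a weak correlation is no finding, so whether both 3p arms vary together between hearts could not be shown at this depth.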

How the data were processed

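MiRNA libraries of 85 hearts were used. Total RNA was extracted and QIAseq miRNA libraries were made by the authors, who deposited raw counts (whole numbers, 1 row per mature miRNA). Per the labels, reads were processed with HISAT2 2.0.6, HTSeq 0.13.5 and the mm10 build. The strand setting, the treatment of reads with several matches and the use of molecular identifiers are not given in the sources used here. Members, lists and run limits were chosen with earlier results of these data known. Named miRNAs are the family, miR-144-3p, list members passing the filter, and the 5 highest and 3 lowest r with miR-101a-3p; for miR-101b-3p none are named, its counts being too few.

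Counts were normalised with TMM in edgeR 4.0.16 (R 4.3.3), and filterByExpr (minimum count of 10 in at least 63 libraries, total of 15) kept 51 miRNAs with 95.7% of counts. A prior count of 2 was added for log2 CPM. Trends used edgeR's quasi-likelihood test and relations used permutations (numpy 2.4.6, scipy 1.17.1, pandas 2.3.3, Python 3.11.15), called at a Benjamini-Hochberg adjusted p under 0.05. Both were tested on simulated data. With no repeat of a strain marked in the labels, p-values measure the spread between these libraries. Alternatives were DESeq2 1.42.0 (size factors, Wald test), CPM without TMM, no filter, a prior count of 0.5, the 84 libraries with at least 3062 counts, and other correlations. GENCODE M21 gave the host genes. Plots used matplotlib 3.10.9.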

Additional observations from a re-analysis of the deposited data

Results flagged for a closer look

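Within S1-S10, the only run of at most 10 libraries, the highest percent of counts of miR-101a-3p stood apart: the gap of S8 (0.196%) to the next library was 0.493 of the whole range of the run, above Dixon's 95% critical value for 10 values. S8 had 13 counts of miR-101a-3p in a total of 6630, with a 95% Wilson interval of 0.115% to 0.335%. Chance marks about 1 in 20 such groups, and the chi-square per degree of freedom of this run was 0.634.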

How the results depend on the processing

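The step of miR-101a-3p between runs was 2.72 to 3.19 log2 units and its SD of log2 CPM 1.37 to 1.61 under the normalizations, filters and prior counts tried and in the 84 deeper libraries, where its share of both 3p arms was 99.4%, as over all libraries. Its trend with library number kept its direction and call under 5 alternatives and lost the call with the run as a covariate (0.0865, adjusted p = 0.955), where 0 of 51 miRNAs were called, also 0 at an unadjusted p under 0.05. Without the filter 99 of 548 miRNAs had a trend, since more were tested. No paired analysis was possible because the libraries form 1 group.

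The 36 of 50 relations called with miR-101a-3p were 29 to 37 of 50 under other normalizations, prior counts and correlations. They were 29 of 547 without the filter, with 20 positive and 9 negative. Of 50, they were 11 without S11-S21 and 13 in S22-S48 and S60-S85. In these 53 libraries there were 11 with Spearman's rho, 10 in CPM without TMM, 12 with the slope on the log2 total removed, and 13 without S24 and S36. Of the cardiomyocyte list, 4 members were called, and 2 without S11-S21. Without the filter 3 of 6 were called, all positive, and miR-133a-3p was not (r = -0.41, adjusted permutation p = 0.0857). In the 53 libraries 2 were called, miR-208a-3p and miR-133a-3p, and the same ones without TMM. With rho there, 2 were called, with miR-1a-3p in place of miR-208a-3p. With the slope removed there, or without S24 and S36, 3 were called, with miR-1a-3p as well. Of the fibroblast list, 3 were called, but 1 with DESeq2 size factors, without the filter or with the biweight midcorrelation, 0 without S11-S21, and 0 under all 5 settings of the 53 libraries.

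Of the relations of miR-101a-3p with 22 single miRNAs under the alternatives, 193 kept their direction and call, 93 kept the direction and lost the call, 2 gained it and 20 turned sign. Signs turned only for relations that were weak or moved with the scaling. In the 53 libraries the r of miR-101a-3p with miR-101b-3p was 0.0273, 0.0583 without TMM, 0.0507 with the slope removed and 0.0396 without S24 and S36. With miR-133b-3p the r was 0.0223 with DESeq2 size factors, 0.0913 without the filter, 0.104 without S11-S21, 0.0237 with rho and 0.0364 with the biweight midcorrelation, and in the 53 libraries 0.101, 0.145 with rho, 0.0893 without TMM, 0.172 with the slope removed and 0.0907 without S24 and S36. With miR-451a it was -0.00284 without TMM, and in the 53 libraries -0.0991, -0.0496 with rho, -0.139 without TMM, -0.103 with the slope removed and -0.000304 without S24 and S36. It was -0.0482 without TMM with miR-143-3p and 0.0873 without the filter with miR-29a-3p. In the 53 libraries without TMM it was -0.0414 with miR-1a-3p and -0.0228 with miR-1b-5p. The causes were not tested.

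Depth limits miR-101b-3p, with at most 4 counts in any library, to pooled values. The settings of the 53 libraries and the values of the step were chosen after seeing the data.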
